A study of Sus scrofa with 297 samples.

Results

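The genes described here are 42 that encode factors of ribosome production and of the start of translation, measured in the livers of 297 adult German Landrace pigs. They were taken by gene symbol from the annotation of the array, with 1 probe set per gene, the one with the highest mean. Of the 42 genes, 40 had a probe set, out of 13755 genes with a symbol on the array. TCOF1 (treacle, a nucleolar factor of ribosomal RNA synthesis) and FBL (fibrillarin, the methyltransferase of box C/D particles) had none under their symbol. Of the 40 genes, 38 passed the filter on low signals, while NPM1 and NOP56 did not. The filter kept a probe set when the 20th percentile of its log2 signal over the livers was at least 5.32.

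Each liver was hybridised to 1 Affymetrix Snowball array, a porcine expression array. The livers formed 1 group with no treatment. The labels gave loin eye area (LEA, the cross section of the back muscle), fat area (FA, the fat over that muscle) and their ratio (MFR) for 289 pigs, and these values were missing for 8. The ratio matched fat area divided by loin eye area within 0.01 in all 289 pigs, so that a high ratio marks a fat carcass, although the labels name it with meat first. LEA spanned 27.8 to 68.4 cm2 with a median of 43.3 cm2, FA spanned 2.4 to 30.0 cm2 with a median of 14.4 cm2, and the ratio spanned 0.06 to 0.74 with a median of 0.32. Pigs whose animal numbers share the leading 2 digits are called a number series. There were 9 such series, numbered 21 to 29, with 9 to 94 pigs, and the labels do not say what a series marks. Sex was not in the labels.

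Ribosomes are assembled in the nucleolus. RNA polymerase I makes a long precursor RNA, small nucleolar particles and a large complex called the small subunit processome fold, modify and cut it, and separate sets of factors finish the small and the large subunit. In most cells these genes are known to be driven together by growth signals, with the transcription factor MYC and the kinase mTOR as the best known regulators, and the liver, which secretes most plasma proteins, is a tissue of high protein synthesis. Translation starts when the cap-binding complex eIF4F and the factor eIF3 bring a messenger RNA to the small subunit.

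POLR1B, a catalytic subunit of RNA polymerase I, had a lowest log2 signal of 6.87, a median of 7.66 and a highest of 8.56 over the 297 livers. POLR1C, a subunit shared by polymerases I and III, spanned 5.44 to 7.66 with a median of 6.15. Among the nucleolar phosphoproteins and chaperones, NOLC1, a chaperone of nucleolar particles, spanned 6.57 to 8.57 with a median of 7.23, and NCL (nucleolin), an abundant nucleolar RNA-binding protein, spanned 6.78 to 9.11 with a median of 8.34. NPM3, a histone chaperone related to nucleophosmin, spanned 5.72 to 7.25 with a median of 6.54, and LYAR, a nucleolar protein of growing cells, 4.90 to 6.71 with a median of 6. NPM1 (nucleophosmin) had a median of only 5.46, and its probe set lay under the filter. In the box C/D particle, which guides ribosomal RNA methylation, NOP58 spanned 6.16 to 8.94 with a median of 7.93. Its partner NOP56 had a median of 4.33 and also lay under the filter.

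Among small subunit factors, WDR43 and HEATR1, both members of the subcomplex that binds the precursor RNA early, spanned 5.78 to 8.91 and 7.55 to 9.30 in log2 signal. UTP20, a large scaffold of the processome, spanned 6.30 to 8.03 and the helicase DDX10 spanned 6.70 to 8.91. The range was narrower for NOP14, 6.09 to 7.60, for RRP9, a protein of the U3 particle, 7.19 to 8.52, and for RRP12, a factor of late maturation and export, 6.19 to 7.87. BYSL (bystin), needed for late small subunit maturation, spanned 6.40 to 7.58. NOB1, the nuclease that makes the final cut of the small subunit RNA, spanned 7.04 to 9.20, and TSR1, another late factor, 5.89 to 8.39.

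Among large subunit factors, GNL3 (nucleostemin, a nucleolar GTPase) spanned 5.84 to 9.01 in log2 signal with a median of 7.37, a 9.00-fold range. The helicases DDX18 and DDX21 spanned 5.97 to 8.44 and 5.75 to 8.55, and NIP7, an RNA-binding assembly factor, spanned 5.99 to 8.06. The PeBoW complex acts in the processing of large subunit RNA. Of its 3 subunits, PES1 and BOP1 were less variable (SD 0.25 and 0.24), but WDR12 was not (0.36, against 0.35 for NIP7). PES1 spanned 7.57 to 8.89, BOP1 spanned 6.66 to 8 and WDR12 spanned 6.37 to 8.23. NOP2, a methyltransferase of large subunit RNA, spanned 6.31 to 8.43. The assembly factors NOP16, RRS1, RRP1B and MRTO4 had medians of 6.39, 6.88, 6.18 and 6.52. PRMT5, an arginine methyltransferase, and its partner WDR77, which together form the methylosome, had medians of 9.18 and 7.40.

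Of the translation factors, EIF4A1, the helicase of eIF4F, spanned 9.58 to 11.51, EIF4E, its cap-binding subunit, spanned 7.21 to 9.69, and EIF4G1, its scaffold, spanned 5.52 to 6.89. EIF5A, a hypusinated factor that helps the ribosome through difficult sequences, spanned 10.37 to 12.45. EIF3B, a core subunit of eIF3, and EIF2B3, a subunit of the exchange factor for eIF2, spanned 7.40 to 8.80 and 6.61 to 8. EEF1E1, a scaffold protein of the complex of aminoacyl-tRNA synthetases, spanned 5.63 to 7.61. Signals of different probe sets depend on their probes and are not set against each other.

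**Figure D1:**
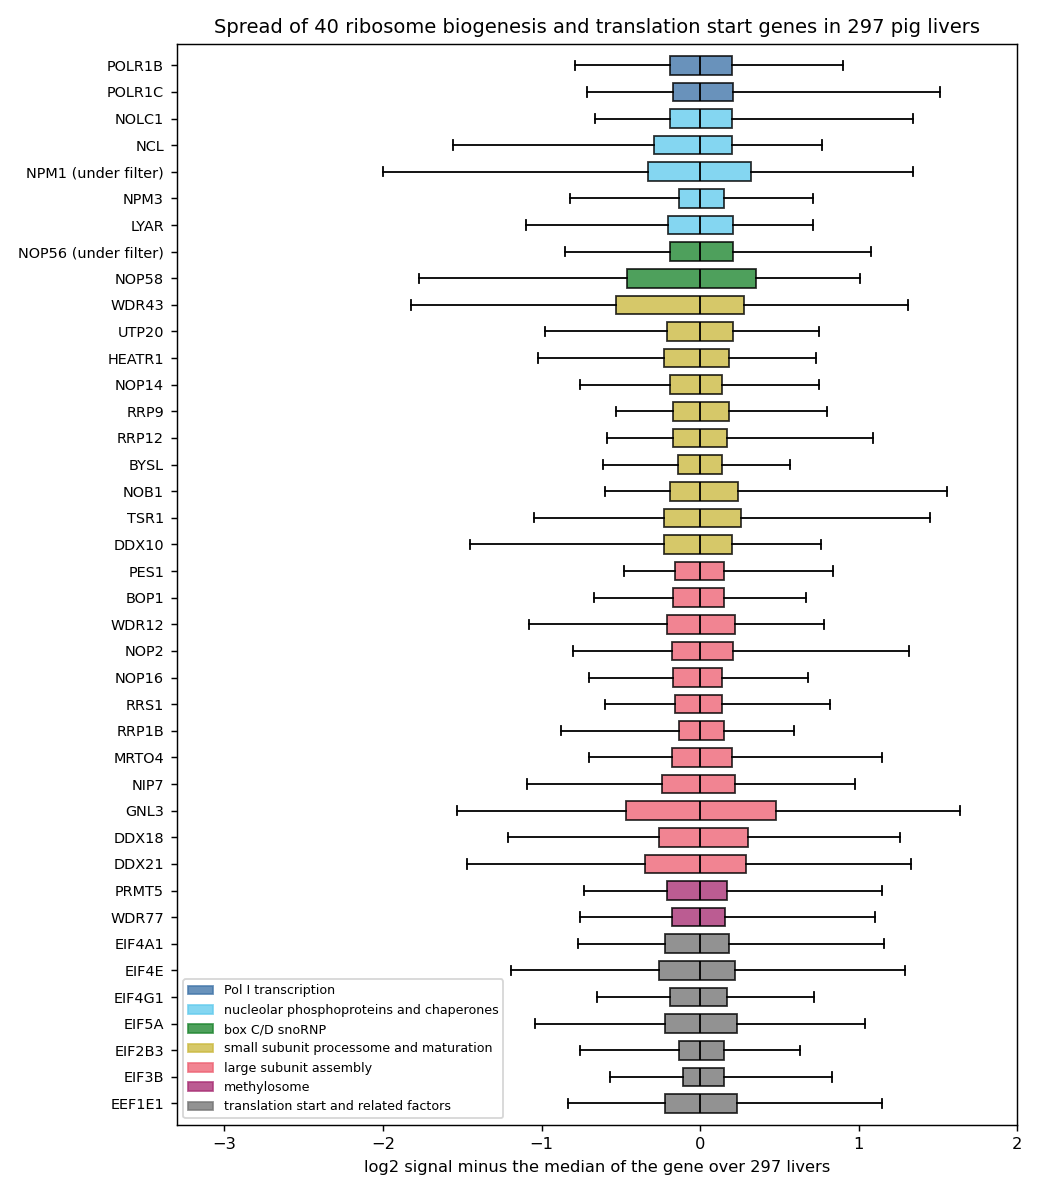
Log2 signal of each of the 40 genes minus its own median over 297 livers, grouped by role. Boxes span the lower to the upper quartile and whiskers reach the lowest and highest liver, and the boxes of GNL3, WDR43 and NOP58 are the widest among genes past the filter.

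The 38 genes past the filter had a median SD of 0.32 on the log2 scale over the livers, against 0.27 for all transcripts kept. The SD of 25 of the 38 genes (65.8%) was above the median of all transcripts kept. The largest SDs were those of GNL3 (0.69), WDR43 (0.60) and NOP58 (0.59), and the smallest were those of BYSL (0.21), EIF3B (0.21) and EIF2B3 (0.21). Within number series the median SD was 0.29. For 12 genes several probe sets were present. In 14 pairs of probe sets of the same gene that both passed the filter, the Spearman rho over livers had a median of 0.816, with a lowest of 0.322 between the probe sets of PES1 and a highest of 0.915 between those of NOP58.

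The labels give body composition traits for these livers, and the genes were correlated with them. In bulk tissue, fewer cells of a type and less RNA per cell cannot be told apart. None of the 38 genes passed a false discovery rate (FDR) of 1% for LEA, FA or the ratio (Spearman correlation, Benjamini-Hochberg over all transcripts kept), against 0.823%, 0.329% and 0.189% of all transcripts kept. At an FDR of 5%, 1 gene was called for LEA (against 4.06% of all transcripts kept), 0 for FA (against 0.923%) and 0 for the ratio (against 0.574%). At an unadjusted p under 0.05, 3 genes counted for LEA, 4 for FA and 1 for the ratio, against 21.8%, 11.1% and 8.62% of all transcripts kept, so that the share among the 38 genes was lower for LEA (7.89%) and the ratio (2.63%) and near that of the array for FA (10.5%). Regression with limma called 1, 0 and 0 genes at an FDR of 1%, against 1.53%, 0.221% and 0.221% of all transcripts kept, and 7, 4 and 1 at an unadjusted p under 0.05, against 27.9%, 11.4% and 8.21%. The median rho of the 38 genes was 0.00942 with LEA, -0.0344 with FA and -0.0333 with the ratio, against -0.0129, -0.00552 and 0.000166 over all transcripts kept. The rho with FA was above 0 in 8 of the 38 genes (21.1%), against 46.7% of all transcripts kept, and the rho with the ratio in 9 (23.7%), against 50.1%. These genes share livers and many of them vary together, and no test of these counts was made.

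The counts at an unadjusted p under 0.05 changed with the handling of the ranks. The prevailing sign changed when a score of X-linked genes was removed, but with FA and the ratio it stayed negative with centring within number series. With ranks centred within number series, 1 gene counted for LEA (2.63%, against 8.54% of all transcripts kept), 7 for FA (18.4%, against 13.4%) and 4 for the ratio (10.5%, against 12.1%), all with a negative rho. In this setting the rho was above 0 with FA in 9 of the 38 genes (23.7%, against 53.4% of all transcripts kept). With the ratio it was above 0 in 10 (26.3%, against 51.45%). The score was the mean over 6 X-linked genes of their ranks among the livers. It was thus made from expression values of the same livers, and it was not checked against sex, which the labels do not give. With this score removed from the ranks, 7 genes counted for LEA (18.4%, against 17.4%), 13 for FA (34.2%, against 22.7%) and 9 for the ratio (23.7%, against 11.9%). Of these, all 7 for LEA had a negative rho, 12 of 13 for FA and 9 of 9 for the ratio had a positive one. The rho was then above 0 with FA in 26 of the 38 genes (68.4%, against 41.7% of all transcripts kept). With the ratio it was above 0 in 28 (73.7%, against 43.1%). The medians were 0.033 and 0.0549, against -0.0231 and -0.0147 over all transcripts kept. With LEA the rho was above 0 in 5 genes (13.2%, against 47.8%) with the score removed. Without its removal it was above 0 in 20 genes (52.6%, against 45.1%). The negative signs with FA and the ratio thus did not hold once that score was removed.

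**Figure D2:**
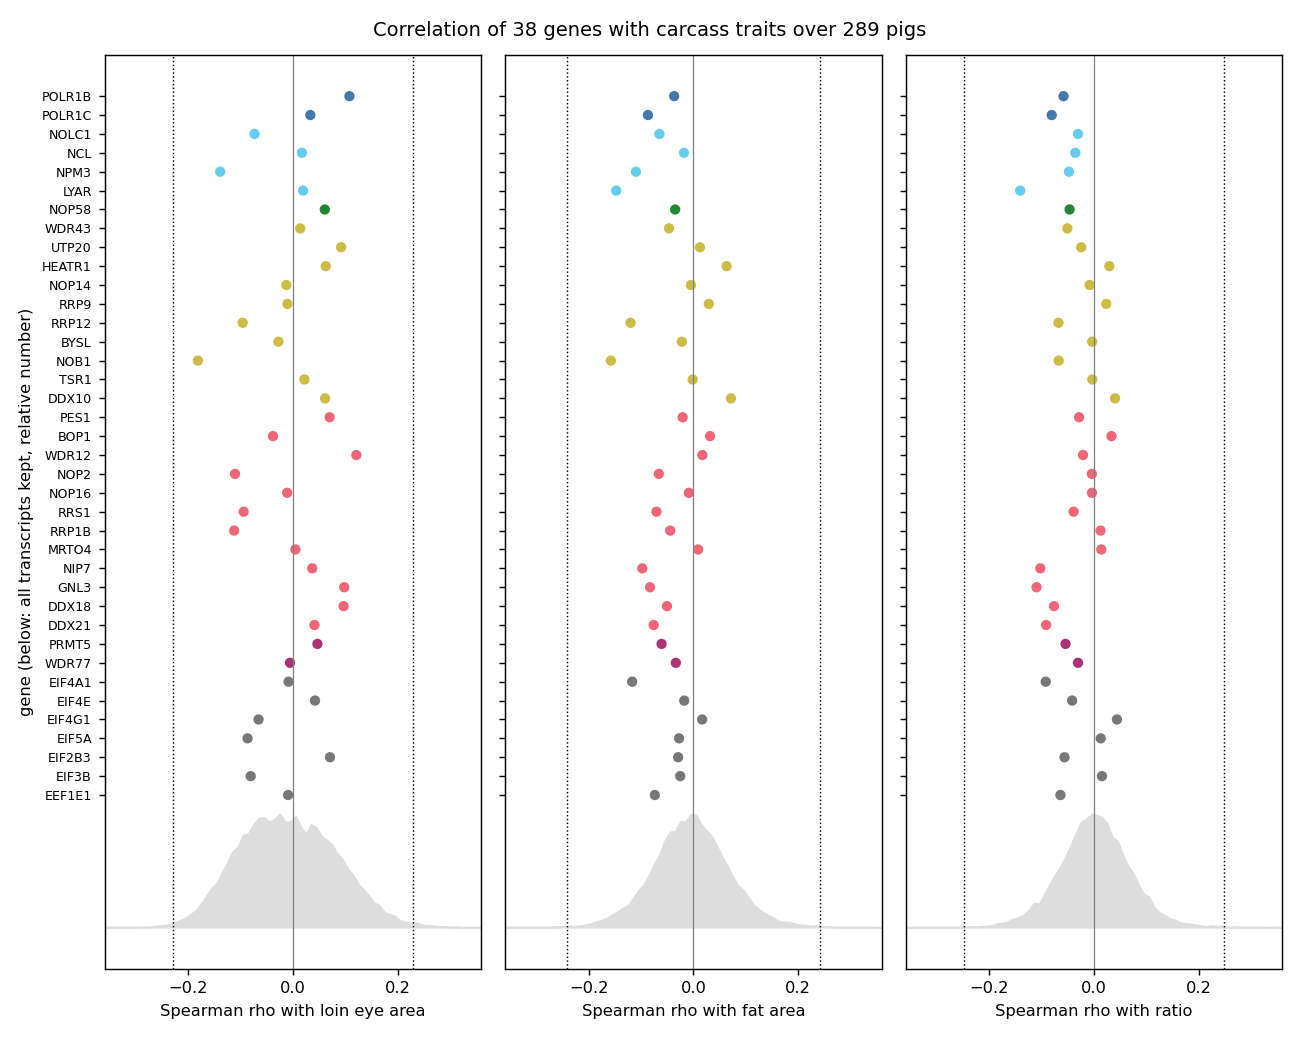
Spearman rho of each of the 38 genes with loin eye area, fat area and ratio over 289 pigs, coloured by role as in the plot of spreads. Grey curves give the relative number of all transcripts kept and dotted lines the smallest size of rho called at an FDR of 1% (0.230, 0.242 and 0.249), and every gene lies between the lines.

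NOB1, the small subunit nuclease, had the rho farthest from 0 with LEA. In the 73 pigs with the largest LEA (47.6 to 68.4 cm2) its log2 signal was lowest at 7.04, had a median of 7.57 and was highest at 8.61, and in the 74 pigs with the smallest LEA (27.8 to 39.7 cm2) these values were 7.06, 7.74 and 9.20. The distributions overlapped almost entirely, and the mean was 7.62 ± 0.33 in large and 7.83 ± 0.48 in small loins (SD). Over 289 pigs the rho was -0.182 (permutation p = 0.00203, two-sided, FDR = 0.049) and Pearson's r was -0.240 (permutation p = 5e-05). With the 2 pigs of most extreme LEA left out, r was -0.244. Within number series the rho was 0.00983. Number series 27 held both the highest mean of NOB1 (8.32 ± 0.46, SD, n = 20) and the lowest mean LEA (36.7 ± 5 cm2), and without its pigs the rho was -0.0713 (FDR = 0.592). Without number series 28, in contrast, the FDR was 0.0146, the smallest among the 9 omissions. With the Pearson correlation, NOB1 passed the FDR of 1% (FDR = 0.00483).

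The other genes at the ends for LEA were less far from 0. NPM3 had a rho of -0.139 (permutation p = 0.0178, FDR = 0.141) and r of -0.147 (permutation p = 0.0124), with r of -0.125 without the 2 farthest pigs and a rho of -0.0255 within number series. WDR12 had the highest rho, 0.121 (permutation p = 0.0403, FDR = 0.205), with r of 0.111 (permutation p = 0.0623), r of 0.111 without the 2 farthest pigs and a rho of 0.0134 within number series. POLR1B followed at 0.108 (permutation p = 0.0671, FDR = 0.263), with r of 0.0778 (permutation p = 0.189), r of 0.112 without the 2 pigs and 0.039 within series. None of these 4 genes had the sign of its pooled rho in more than 5 of the 9 number series. The 3 genes with the lowest unadjusted p for LEA were NOB1, NPM3 and WDR12, which are known from different steps of the pathway.

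For FA the lowest rho were again that of NOB1 (-0.158, permutation p = 0.00723, FDR = 0.191, r = -0.129 with permutation p = 0.0278) and that of LYAR (-0.148, permutation p = 0.0118, FDR = 0.243, r = -0.162 with permutation p = 0.0055). In the 75 pigs with the largest FA (17.3 to 30.0 cm2) LYAR spanned 4.90 to 6.61 with a median of 5.91, and in the 75 pigs with the smallest FA (2.4 to 10.6 cm2) 5.33 to 6.71 with a median of 6.08. The 2 sets of pigs overlapped over most of this range. Within number series the rho of LYAR was -0.144, with the same sign in 8 of 9 series, and r without the 2 farthest pigs was -0.167. It was -0.0548 with the score of X-linked genes removed and -0.0582 with 17 principal components of the expression values removed. For NOB1 the rho within number series was -0.0945, with the same sign in 6 of 9 series, and r without the 2 farthest pigs was -0.124. Its rho with FA was -0.0879 with the score of X-linked genes removed. That rho turned to 0.0474 once 5 principal components of the expression values were removed and to 0.0321 with 17 removed. The highest rho with FA were those of DDX10 (0.0715, permutation p = 0.226, FDR = 0.741, r = 0.0628 with permutation p = 0.286) and HEATR1 (0.0634, permutation p = 0.283, FDR = 0.783, r = 0.0842 with permutation p = 0.153). Within number series they were -0.053 and 0.00405, and r without the 2 farthest pigs was 0.0403 and 0.0708. With the score of X-linked genes removed they were 0.224 and 0.181.

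For the ratio the lowest rho was that of LYAR (-0.141, permutation p = 0.0168, FDR = 0.386, r = -0.156 with permutation p = 0.00784), which was -0.137 within number series and had r of -0.150 without the 2 farthest pigs. It was -0.0414 with the score of X-linked genes removed and -0.0534 with 17 components removed. GNL3 followed (-0.110, permutation p = 0.0622, FDR = 0.614, r = -0.104 with permutation p = 0.078). Its rho within number series was -0.167, with the same sign in 8 of 9 series, and its r without the 2 pigs was -0.117. In the 73 pigs with the highest ratio (0.42 to 0.74) GNL3 had a mean of 7.24 ± 0.71, and in the 85 pigs with the lowest ratio (0.06 to 0.24) a mean of 7.42 ± 0.69 (SD), a difference well within the spread among pigs. Removal of the score of X-linked genes turned the rho of GNL3 to 0.106. The highest rho with the ratio were those of EIF4G1 (0.0437, permutation p = 0.46, FDR = 0.945, r = 0.0165 with permutation p = 0.78) and DDX10 (0.0401, permutation p = 0.496, FDR = 0.951, r = 0.031 with permutation p = 0.602). Within number series these were 0.067 and -0.00398, and r without the 2 pigs was 0.038 and 0.00474. With the score of X-linked genes removed they were -0.0199 and 0.199.

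The wider machinery was examined through 139 further genes of the same processes, of which 115 had a probe set and 109 passed the filter. Only EIF2S3, a subunit of the initiator factor eIF2 that is encoded on the X chromosome, passed the FDR of 1% for any trait. Its rho was 0.239 with LEA, -0.273 with FA and -0.311 with the ratio. Of the 26 other small subunit factors, the 32 other large subunit factors, the 3 genes of the box H/ACA particle, the 8 other polymerase I genes and the 17 genes around MYC and mTOR that passed the filter, none was called for any trait. At an unadjusted p under 0.05, 16 of the 109 genes counted for LEA (14.7%, against 21.8% of all transcripts kept), 8 for FA (7.34%, against 11.1%) and 8 for the ratio (7.34%, against 8.62%). The farthest from 0 for LEA after EIF2S3 was WDR74, a large subunit factor, with a rho of -0.174 (FDR = 0.0624). For LEA the remaining ends of the lists were DDX52 (0.141), LTV1 (0.117), PWP2 (-0.120) and RRP7A (-0.0786) among small subunit factors. Among large subunit factors they were NMD3 (0.116), SENP3 (0.110) and RRP1 (-0.151). The H/ACA particle had GAR1 (0.100), NAF1 (0.0474) and DKC1 (-0.116). Those of polymerase I were TAF1A (0.0510), POLR1E (0.0408), TAF1C (-0.120) and POLR1A (-0.0956). Initiation factors had EIF4EBP2 (0.116), EIF3H (-0.121) and EIF3F (-0.0692). Around MYC and mTOR they were MLST8 (0.126), RICTOR (0.122), MXD1 (-0.123) and TSC1 (-0.118). For FA and the ratio the ends included MYC itself (-0.174 and -0.154), RRN3, an initiation factor of polymerase I (-0.156 and -0.126), EIF2S1 (-0.154 and -0.148), RPF2 (-0.110 and -0.129) and RCL1 (0.143 and 0.148). These values have an FDR above 5% except those of EIF2S3.

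Across livers the 38 genes varied together more than genes in general. The 703 pairs had a median Spearman rho of 0.227 over 297 livers, against 0.0322 over all pairs of genes that have a symbol and passed the filter. A rho above 0.5 was found for 146 pairs (20.8%), against 4.38% of all pairs, and above 0.3 for 304 pairs (43.2%), against 17.5%. Below -0.3 there were 48 pairs (6.83%), against 16.4%. Pairs share genes and livers, so these shares are a description. The sign within number series was the pooled one in 656 of the 703 pairs, and this share was not calculated over all pairs of genes. Series held a median of 15.9% of the rank variance of the 38 genes, so that centring left most of it in place. Calculated within each series on its own, the median rho spanned 0.135 in series 21 (29 pigs) to 0.342 in series 24 (28 pigs).

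**Figure D3:**
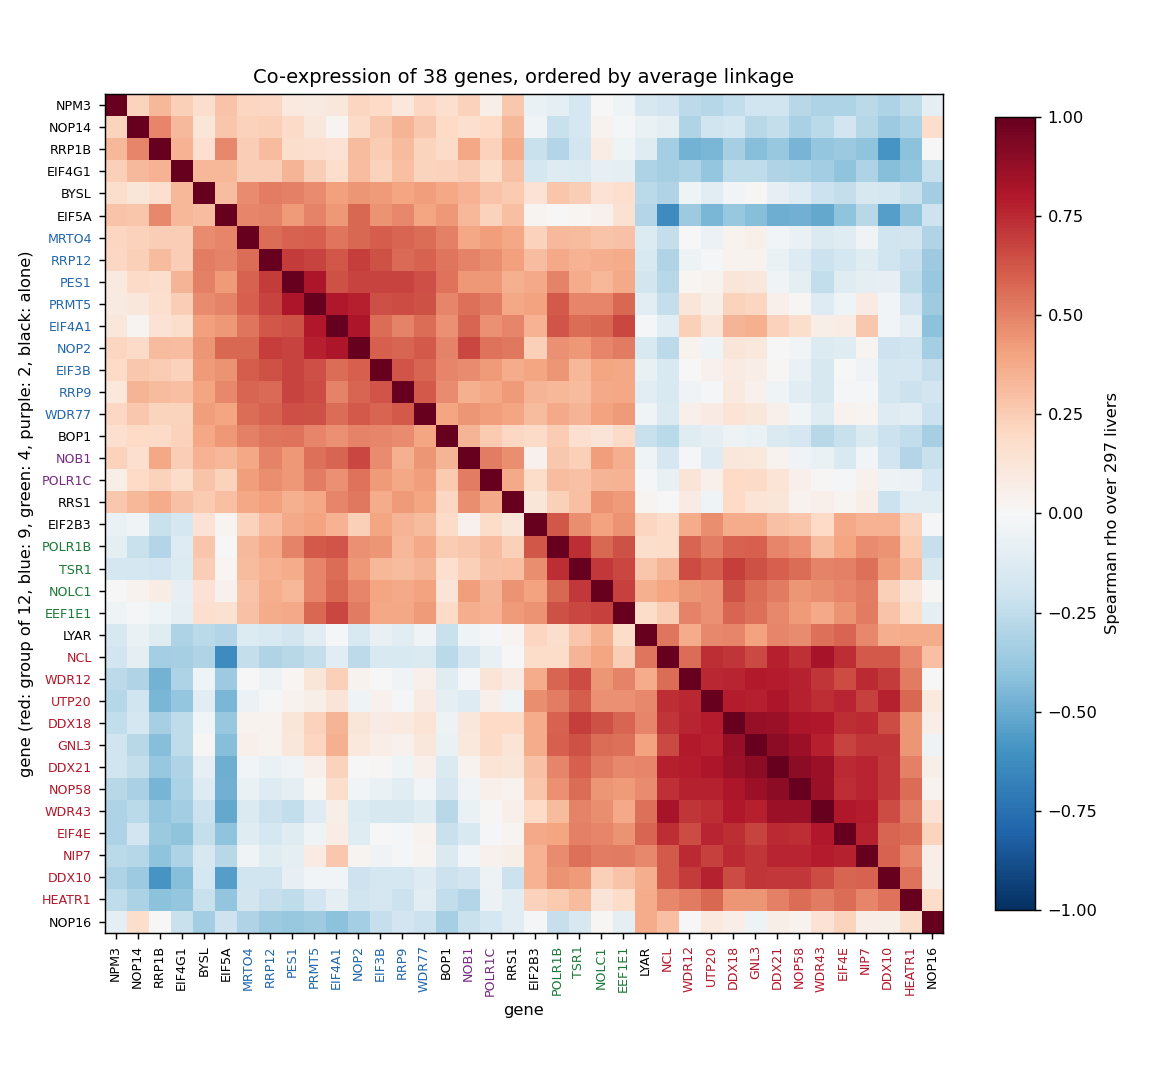
Spearman rho between each pair of the 38 genes over 297 livers, with genes ordered by average linkage and label colours giving the co-expressed groups. The group of 12 around DDX21 (red labels) and the group of 9 around PES1 (blue labels) form separate blocks with rho near 0 between them, and the 4 genes in green connect to both.

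The genes did not form a single block. Average linkage with a mean rho of at least 0.5, a limit chosen after the values had been seen, gave 4 groups of more than 1 gene and left 11 genes alone. These groups describe the same livers they were made from and were not tested. The largest held 12 genes, NOP58, DDX21, GNL3, DDX18, WDR43, WDR12, UTP20, NCL, NIP7, DDX10, HEATR1 and EIF4E, and is called the DDX21 group. The next held 9 genes, PES1, PRMT5, WDR77, EIF4A1, NOP2, EIF3B, RRP9, RRP12 and MRTO4, and is called the PES1 group. NOLC1, TSR1, POLR1B and EEF1E1 formed a group of 4, and NOB1 with POLR1C a group of 2. Small subunit, large subunit and translation factors were found in both large groups.

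Within the DDX21 group the 66 pairs had rho from 0.440 to 0.893, with a median of 0.738. The highest pair of all was NOP58 with DDX21 (rho = 0.893, r = 0.899, permutation p = 1e-05 for both, the smallest that 100000 orders can give). In the 75 livers with the highest NOP58, DDX21 spanned 7.17 to 8.55 with a median of 7.68, and in the 75 livers with the lowest NOP58 it spanned 5.75 to 7.31 with a median of 6.45. These 2 sets of livers barely overlapped. Without the 2 farthest livers r was 0.895, within number series the rho was 0.873, and single series gave 0.420 to 0.918. The next pairs were GNL3 with DDX21 (0.892), GNL3 with DDX18 (0.869), NOP58 with WDR43 (0.866), DDX18 with DDX21 (0.864), WDR43 with DDX21 (0.856), NOP58 with GNL3 (0.852) and NCL with WDR43 (0.822). All had a permutation p of 1e-05, and within number series these 7 pairs had rho of 0.803 to 0.887. WDR43 and HEATR1, which belong to the same subcomplex, had a rho of 0.517.

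Within the PES1 group the 36 pairs had rho from 0.498 to 0.812, with a median of 0.617. PRMT5 with PES1 was the closest (rho = 0.812, r = 0.835), followed by EIF4A1 with NOP2 (0.810). In the 75 livers with the highest EIF4A1, NOP2 spanned 6.91 to 8.43 with a median of 7.48, and in the 76 livers with the lowest EIF4A1 6.31 to 7.19 with a median of 6.84. The 2 subunits of the methylosome, PRMT5 and WDR77, had a rho of 0.635 (permutation p = 1e-05). Between the DDX21 group and the PES1 group the 108 pairs had rho from -0.299 to 0.357, with a median of -0.0304. The group of 4 lay between them, with a median rho of 0.479 to the DDX21 group and 0.385 to the PES1 group, and 0.679 within itself. Its closest pair was POLR1B with TSR1 (0.737). NOB1 and POLR1C (0.514) had a median rho of 0.448 to the PES1 group and -0.0159 to the DDX21 group.

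**Figure D4:**
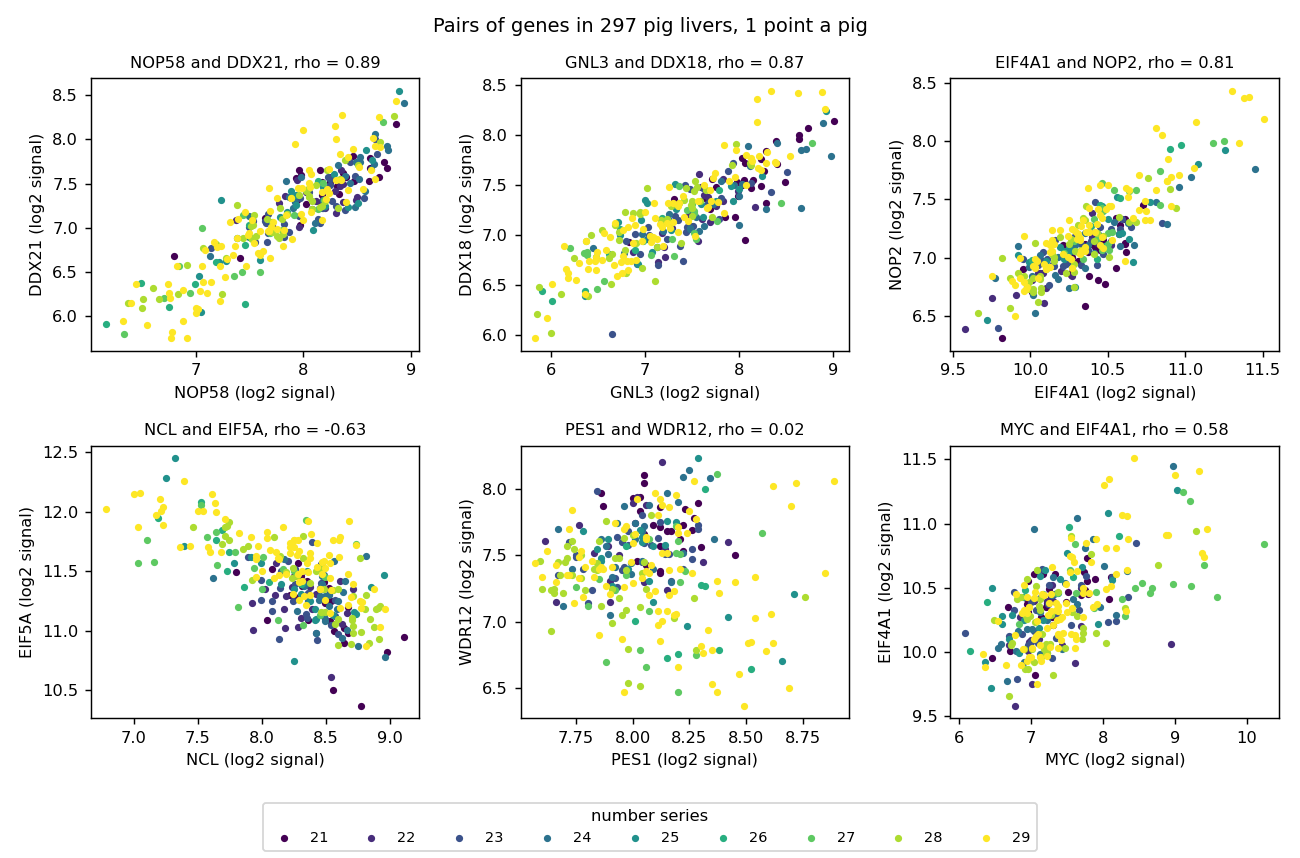
Log2 signals of 6 pairs of genes in 297 livers, 1 point per pig and coloured by number series. NOP58 with DDX21, GNL3 with DDX18 and EIF4A1 with NOP2 rise together, NCL falls as EIF5A rises, PES1 and WDR12 show no common course, and MYC rises with EIF4A1.

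Pairs of genes from the same complex, chosen after the values had been seen, differed in their rho. In PeBoW, PES1 and BOP1 had a rho of 0.541 (permutation p = 1e-05), but PES1 with WDR12 had 0.0177 (permutation p = 0.763) and BOP1 with WDR12 -0.118 (permutation p = 0.0425). The values of PES1 are those of 1 of its 2 probe sets, which had a rho of only 0.322 with each other. After removal of the difference between background control probe sets, described with the number series, BOP1 with WDR12 had -0.00944 and PES1 with WDR12 had 0.117. In the 78 livers with the highest PES1, WDR12 had a mean of 7.36 ± 0.49, and in the 76 livers with the lowest PES1 7.42 ± 0.22 (SD). The means did not differ beyond this spread, while the spread of WDR12 was wider where PES1 was high. In eIF4F, the rho between EIF4A1 and EIF4E was 0.0749 (permutation p = 0.199), while r was 0.118 (permutation p = 0.0409). Within number series their rho was 0.154, and it was positive in 9 of 9 series. EIF4A1 with EIF4G1 had 0.179 (permutation p = 0.00184), positive in 6 of 9 series. EIF4E with EIF4G1 had -0.403 (permutation p = 1e-05), negative in 9 of 9 series, and -0.189 after removal of the background difference. The other probe sets of EIF4E lay under the filter and had rho of -0.10 to 0.54 with the one used. The polymerase subunits POLR1B and POLR1C had a rho of 0.312 (permutation p = 1e-05). NOP58 and NOP56 had 0.010 (permutation p = 0.864), and NPM1 with NPM3 had -0.0966 (permutation p = 0.0954), both with a partner under the filter. Among late small subunit factors the rho was 0.242 for NOB1 with TSR1, 0.350 for NOB1 with BYSL and 0.514 for BYSL with RRP12.

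The shapes of the distributions differed between the groups. In 9 of 9 genes of the PES1 group and in 4 of 4 genes around NOLC1, the highest liver lay farther from the median than the lowest, and this held for 31.6% of all transcripts kept. NOP2, for example, reached 1.32 above and 0.80 below its median on the log2 scale. In the DDX21 group it held for 3 of 12 genes, GNL3, DDX18 and EIF4E. NCL reached 0.77 above and 1.56 below its median. In 1 pig of number series 29, 29 of the 38 genes were among their highest 10% of livers. Genes of a group vary together, and the comparison uses only the lowest and the highest liver of each gene. The same few pigs can therefore set many of these results, and the counts are a description.

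The 4 genes with the highest median rho to the other members were NOLC1 (0.401), EEF1E1 (0.385), PRMT5 (0.383) and POLR1B (0.382). NOLC1 exceeded a rho of 0.3 with 26 of the 37 other genes, and 0.5 with 8 of them, against 0.914% of all genes above 0.5. In the DDX21 group this share of all genes was larger, from 7.24% for HEATR1 to 14.6% for WDR43. HEATR1 exceeded 0.5 with 7 of the 37 other genes and WDR43 with 12. The 4 with the lowest were NOP16 (-0.101), EIF4G1 (-0.0848), HEATR1 (-0.0606) and DDX10 (-0.0268). HEATR1 and DDX10 nevertheless belonged to the DDX21 group, while their rho to each of the 9 genes of the PES1 group was below 0. Of the 11 genes alone, NOP16 had its closest partner in LYAR (0.371), EIF4G1 in RRP1B (0.350), NPM3 in RRP1B (0.331) and NOP14 in RRP1B (0.491). LYAR lay nearest to EIF4E (0.580), EIF2B3 to POLR1B (0.622), RRS1 to NOP2 (0.524), BOP1 to PES1 (0.541), BYSL to RRP12 (0.514) and EIF5A to NOP2 (0.576).

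The 4 lowest pairs all set a gene of the DDX21 group against EIF5A or RRP1B. NCL with EIF5A had a rho of -0.629 (r = -0.677, permutation p = 1e-05 for both). EIF5A spanned 10.37 to 11.92 with a median of 11.18 in the 77 livers with the highest NCL, and 11.01 to 12.45 with a median of 11.71 in the 75 livers with the lowest NCL. The sets overlapped, but their means of 11.19 ± 0.29 and 11.73 ± 0.28 (SD) lay apart by more than the SD of either. The rho was -0.620 within number series, and r was -0.666 without the 2 farthest livers. Single series gave -0.9 to -0.00878, so that the sign was the same in 9 of 9 but the weakest value was near 0. DDX10 with RRP1B had -0.591, but -0.410 within number series and -0.140 after removal of the background difference described below. DDX10 with EIF5A (-0.554) and WDR43 with EIF5A (-0.509) were -0.496 and -0.467 within series, with the same sign in 8 and 7 of 9 series. After removal of the background difference, NCL, DDX10 and WDR43 had rho of -0.551, -0.386 and -0.362 with EIF5A.

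Outside the 38 genes, the 10 genes with the highest median rho to them were KTI12 (0.413), METTL1 (0.406), FTSJ3 (0.405), MDN1 (0.402), PTRH2 (0.399), NDUFAF4 (0.389), RPF2 (0.384), ABCF2 (0.382), LRRC59 (0.368) and SEC23B (0.366), among 10464 genes whose median of this value was 0.00466. FTSJ3, MDN1 and RPF2 are large subunit factors on the lists of further genes, which hold 1.04% of these 10464 genes. KTI12 and METTL1 act in the modification of transfer RNA, and NDUFAF4 is an assembly factor of mitochondrial complex I. The DDX21 group had NAA25 (median rho 0.809), WDR75 (0.806) and SYNCRIP (0.799) as its nearest genes, and BMS1 (0.799), NOC3L (0.798), GNL2 (0.793), EIF3A (0.777) and BRIX1 (0.772), all on the lists, were among its nearest 10. The PES1 group had METTL1 (0.716), NOL6 (0.707) and LRRC59 (0.687), and the group of 4 had RPF2 (0.729), DDX47 (0.679) and NDUFAF4 (0.672). The lists of further genes had a median rho to the 38 genes of 0.178 for small subunit factors, 0.176 for large subunit factors, 0.278 for the H/ACA particle, 0.101 for polymerase I, 0.0836 for initiation factors and 0.0571 for genes around MYC and mTOR.

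Known regulators were set beside the genes, with the pairs chosen after the values had been seen. MYC spanned 6.09 to 10.24 in log2 signal with a median of 7.30, and its rho exceeded 0.3 with 10 of the 38 genes (26.3%), against 4.25% of all genes. The highest were EIF4A1 (0.582, r = 0.616), NOB1 (0.520, r = 0.656) and NOP2 (0.511, r = 0.544), each with a permutation p of 1e-05 for rho and r, and within number series they were 0.570, 0.473 and 0.480. EIF4A1 spanned 10.06 to 11.51 with a median of 10.61 in the 75 livers with the highest MYC, and 9.58 to 10.57 with a median of 10.16 in the 76 livers with the lowest MYC. In the DDX21 group the rho with MYC lay between -0.111 for HEATR1 and 0.276 for GNL3, and the lowest of all was that of NOP16 (-0.180, permutation p = 0.00176). RRN3 spanned 5.72 to 8.16 and exceeded a rho of 0.3 with 26 of the 38 genes (68.4%), against 4.48% of all genes. For MTOR these shares were 34.2% and 27.2%, for MAX, the partner of MYC, 39.5% and 29.2%, and for UBTF, a polymerase I factor, 26.3% and 26.9%. A rho below -0.3 was found with 4 of the 38 genes for MTOR, 6 for MAX and 7 for UBTF. For MYC and RRN3 this number was 0. The share of all genes below -0.3 was not calculated for them. The rho of MTOR spanned -0.48 with WDR43, of the DDX21 group, to 0.60 with EIF3B, of the PES1 group.

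Most of the genes differed between number series. By the F test of limma over the 9 series, 35 of 38 genes differed at an FDR of 1%, against 88% of all transcripts kept, so that the share among the genes (92.1%) was close to that of the array. The 3 genes not called were TSR1, WDR77 and EEF1E1 (FDR = 0.0164, 0.0128 and 0.0364). The share of rank variance between series had a median of 15.9%, against 14.5% over all transcripts kept, and it spanned 4.87% for WDR77 to 45.5% for RRP1B. The mean of RRP1B was 5.94 ± 0.20 in series 21, 5.92 ± 0.19 in series 22, 6.08 ± 0.19 in series 23, 6.02 ± 0.14 in series 24, 6.13 ± 0.13 in series 25, 6.28 ± 0.18 in series 26, 6.26 ± 0.19 in series 27, 6.31 ± 0.14 in series 28 and 6.30 ± 0.17 in series 29 (SD over pigs). Its 4 highest series were thus those numbered 26 to 29. GNL3 had the largest difference between series, with 8.10 ± 0.43 in series 21 (n = 29) and 6.72 ± 0.59 in series 26 (n = 9). Series 26 held the lowest mean of 12 of the 38 genes and the highest mean of 12 others. It is the smallest series, so its means rest on the fewest pigs. How often it held the lowest or highest mean among all transcripts kept was not calculated. With 5 principal components removed, 20 genes were called (52.6%), against 38.5% of all transcripts kept.

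The groups moved differently over the series. The mean standardized signal of the DDX21 group was highest in series 21 (0.695 ± 0.441 SD units) and lowest in series 26 (-1.03 ± 0.895), and that of the PES1 group was highest in series 26 (0.773 ± 0.684) and lowest in series 28 (-0.441 ± 0.723). NOB1 and POLR1C were highest in series 27 (0.918 ± 0.979). The arrays carry background control probe sets of known base content, and the signal of 24 rich in G and C minus that of 21 poor in them gives a difference that belongs to no gene. It averaged 6.18 ± 0.24 in series 21, 6.20 ± 0.18 in series 22 and 6.67 ± 0.20 in series 28 (log2, SD). Over livers its rho with the genes of the DDX21 group was -0.696 to -0.399, with those of the PES1 group 0.0115 to 0.255, and with RRP1B 0.754, while the median size of this rho over all transcripts kept was 0.344. After its removal the median rho within the DDX21 group was 0.625 and within the PES1 group 0.612. The first principal component of all transcripts kept, with 27.8% of their variance, had rho of -0.810 to -0.575 with the DDX21 group and 0.276 to 0.498 with the PES1 group, and after its removal the medians within the groups were 0.378 and 0.554. With 5 components removed they were 0.227 and 0.289. The part of these array-wide measures in the co-expression was not tested beyond these values.

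**Figure D5:**
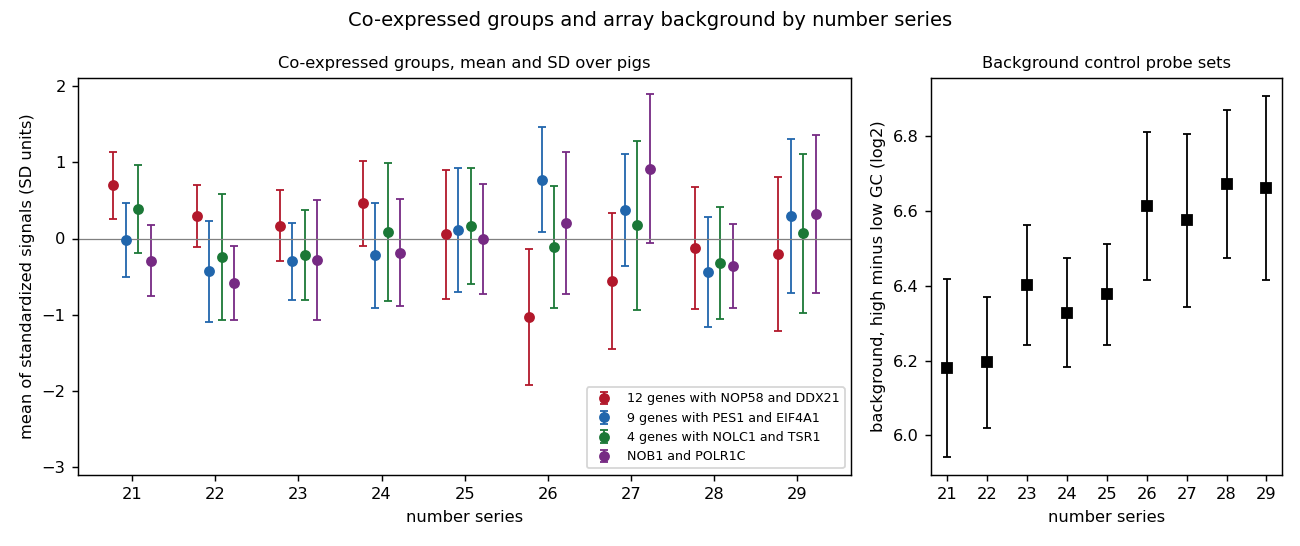
Left, mean of standardized signals of the 4 co-expressed groups in each number series, with the SD over pigs as error bars. Right, background control signal of probe sets rich in G and C minus that of probe sets poor in them, mean and SD on a log2 scale, which is higher in series 26 to 29 than in series 21 to 25.

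Markers of liver cell types were set beside the groups. Hepatocyte markers were high in every liver, with ALB between 13.73 and 14.11 and 9 of 10 listed genes measured. Their mean signal, which spanned 12.52 to 12.86, had rho of 0.128 with the DDX21 group and -0.217 with the PES1 group. The mean of 6 of 8 neutrophil and monocyte markers past the filter spanned 6.27 to 7.61 and had rho of 0.521 with the PES1 group, 0.515 with NOB1 and POLR1C and -0.291 with the DDX21 group. S100A8 and LYZ were under the filter. The mean of 10 of 10 T and NK cell markers (6.28 to 7.45) had rho of -0.403 with the DDX21 group and 0.207 with the PES1 group, and the mean of 7 of 10 Kupffer cell and macrophage markers (8.47 to 9.57) had -0.0749 and 0.350. For the 4 of 8 markers of dividing cells past the filter (6.14 to 7.25) the values were 0.0769 and 0.0195, and CDK1, CCNB1, CCNB2 and MCM2 were under the filter. B cell, endothelial, bile duct and stellate cell markers had rho of -0.220 to 0.0201 with the DDX21 group and -0.0908 to 0.170 with the PES1 group. The part of other cell types in the co-expression was not tested.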

How the data were processed

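One-colour Affymetrix Snowball arrays measured RNA from 297 livers. The authors deposited log2 signals, which they made with the robust multichip average in Expression Console, and GCOS 1.1.1 is named in the submitters' processing notes. The number of arrays limits the precision. No other processing version or annotation build was used here, and the study's residuals (genetic similarity, components, gender, carcass weight) were not formed.

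Of 47845 probe sets, 123 controls were left out, and probe sets were ranked by the 20th percentile of their signal over livers. The upper 24909, a number taken from the methods, were kept (5.32 or more), in place of the study's filter on detection. Probe sets were named by the platform annotation (26426 with 1 symbol and 21296 with none). No sequences or coordinates were used. Spearman correlations had p from the t distribution with Benjamini-Hochberg adjustment over the transcripts kept (FDR 1%), and 100000 two-sided permutations were drawn for named values. Number series were compared with the F test of limma 3.58.1 (R 4.3.3). The pigs of 1 series were not taken as replicates of a treatment. Other steps used Python 3.11.15, numpy 2.4.6 and scipy 1.17.1. The tests were tried on simulated data.

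The members and the gene lists were chosen with earlier results of these data known. The genes given with full statistics were the 2 highest and 2 lowest for each trait, the 8 highest and 4 lowest pairs, the 4 genes with the highest and the 4 with the lowest median rho to the others, the 3 largest and 3 smallest SDs, the 10 nearest outside genes, and the ends of each further list. The limit for groups, the complex and regulator pairs, and the alternatives with background control probe sets, 1 component, unfiltered members and traits without each number series were chosen after the values had been seen.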

Additional observations from a re-analysis of the deposited data

How the results depend on the processing

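The count of genes called for LEA was 0, and 1 gene, NOB1, was called with the Pearson correlation, with regression by limma, with a score of X-linked genes removed and at an FDR of 5%. It stayed 0 for FA and the ratio under all 21 alternatives of each, which include leaving out each number series. The count of genes differing between number series was 20 after removal of 5 principal components and 34 to 38 otherwise. The median rho over pairs was 0.138 after removal of 5 components, 0.109 after 17 and 0.317 after 1, and between 0.175 and 0.250 under 16 other alternatives. Pairs above 0.5 numbered 11 after 5 components and 0 after 17, and 121 to 183 otherwise. With 17 components removed, the rho with LEA turned to -0.00716 for WDR12 and -0.0232 for POLR1B, and the rho with FA to -0.0249 for HEATR1 and 0.0321 for NOB1. With 5 components removed the rho of NOB1 with FA turned to 0.0474. With ranks centred within number series the rho turned to 0.00983 for NOB1 with LEA, -0.053 for DDX10 with FA and -0.00398 for DDX10 with the ratio. With the score of X-linked genes removed, the rho with the ratio turned to -0.0199 for EIF4G1 and 0.106 for GNL3. The cause was not tested. Components are made from the same values and can hold the co-expression itself. No paired analysis was possible because the livers form 1 group. Genotype, sex and carcass weight were not used here, arrays give no read depth, and with 289 pigs the smallest rho called was 0.230 for LEA, 0.242 for FA and 0.249 for the ratio.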
